A study of Mus musculus with 6 samples.

Results

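The Zfp genes are mouse genes named for the zinc fingers of the proteins they encode, and they were taken here as the autosomal protein-coding genes whose symbol is Zfp followed by a number, with Zfp42 left out. Of the 21418 autosomal protein-coding genes annotated on the mouse genome NCBIM37, 336 met this rule. They lay on all 19 autosomes, with 86 on chromosome 7, 39 on chromosome 17 and 33 on chromosome 13. The symbols of 4 genes were annotated under 2 gene identifiers each, which were counted apart. The genes covered 4757 of the 2 kb tiles into which the deposited table divides the genome, with a median of 8 tiles a gene, and 1 gene lay in 1 tile and 16 in 2 tiles.

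Embryonic stem cells (ESCs) kept in serum with LIF were profiled by ChIP-seq, which sequences the DNA bound to a modified histone. The antibodies were against H3K9me2, H3K27me3 and H3K9me3, and 1 library was made for each of these 3 marks in each of 2 genotypes. All cells carried a constitutive deletion of Dicer, the enzyme that makes small RNAs, produced by CRISPR in ESCs with loxP sites at both copies of Dnmt1. In the Dicer KO/Dnmt1 cKO cells Dnmt1, the enzyme that maintains DNA methylation, had in addition been removed by a Cre recombinase that tamoxifen activates, and the labels give the strain as E14. Wild-type cells were not analysed here, so each comparison below is between these mutants. With 1 library for each mark and genotype there was no replicate check and no test, and intervals are 95% intervals for counting error.

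C2H2 zinc fingers are small folds held by a zinc ion that read DNA, and genes of this kind often carry many of them in a row in 1 long coding exon near the 3′ end. A large group also encodes a KRAB domain, which recruits TRIM28 and with it the H3K9 methyltransferase SETDB1, and such proteins silence transposable elements and keep imprints methylated. Many of these genes sit in clusters formed by duplication, and the 3′ ends of KRAB zinc finger genes are a known place of H3K9me3.

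The libraries held 16834940 to 27162045 reads in tiles, or 12.7 to 20.5 reads in a mean tile. The level of a mark below is the number of reads per tile at a position divided by the mean number of reads per tile of that library, so that 1 is the library's mean, and a position at a level of 2 or more is called marked. As a check of the cell type, the start tiles of 5 of the 6 ESC genes sought, Pou5f1, Sox2, Nanog, Klf4 and Esrrb, had a median H3K27me3 level of 0.64 in Dicer KO and 0.69 in Dicer KO/Dnmt1 cKO, although Esrrb itself stood at 1.95 and 2.81. The start tiles of 6 somatic factors such as Pax6 and Neurog1 were all marked in both genotypes, with medians of 7.65 and 5.46.

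The fingers were found in the translated coding sequence by the spacing of their cysteines and histidines, and 320 of the 336 genes held at least 1, with a median of 10 and at most 36. The tiles with bases that code for fingers are called finger tiles. They included the last tile of the gene, the tile with its 3′ end, in 122 genes and 1 of the last 2 tiles in 235 genes. The coding DNA of 3 neighbouring fingers is shown for Zfp629, Zfp13 and Zfp777, whose finger tiles had the highest single-tile H3K9me3 levels of all finger tiles in Dicer KO, a choice made after the values were seen. All 3 stretches are exonic coding sequence on the minus strand of NCBIM37, at chr7:134755469-134755699 for Zfp629, chr17:23713531-23713761 for Zfp13 and chr6:47974640-47974870 for Zfp777. Capitals mark the codons of the conserved linker between fingers.
Zfp629: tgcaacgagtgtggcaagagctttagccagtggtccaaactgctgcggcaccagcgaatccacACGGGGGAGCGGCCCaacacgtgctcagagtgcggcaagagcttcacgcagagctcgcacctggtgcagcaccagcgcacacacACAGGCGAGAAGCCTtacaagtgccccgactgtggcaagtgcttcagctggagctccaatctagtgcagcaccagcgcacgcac
Zfp13: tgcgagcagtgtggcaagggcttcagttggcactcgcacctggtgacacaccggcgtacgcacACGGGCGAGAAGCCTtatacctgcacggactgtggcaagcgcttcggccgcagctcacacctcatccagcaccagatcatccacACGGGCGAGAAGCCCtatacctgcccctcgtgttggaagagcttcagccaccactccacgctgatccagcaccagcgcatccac
Zfp777: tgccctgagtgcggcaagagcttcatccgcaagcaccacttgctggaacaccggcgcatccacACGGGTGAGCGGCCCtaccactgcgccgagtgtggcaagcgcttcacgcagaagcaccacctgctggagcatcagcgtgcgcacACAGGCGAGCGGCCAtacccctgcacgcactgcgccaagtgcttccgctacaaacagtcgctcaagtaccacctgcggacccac

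Each stretch was 231 bases long and held 2 linkers. The Zfp genes encoded 1532 linkers in 293 DNA versions, and the commonest version, ACTGGAGAGAAACCC, made up 153 of them or 9.99%. On either strand this sequence occurred in 70 of the 597 finger tiles of the Zfp genes, or 11.7%, and in 0.0275% of all autosomal tiles. Reads that mapped ambiguously were discarded by the authors, and reads of near-identical fingers can therefore be undercounted. A shared linker of 15 bases is shorter than a read and does not by itself make one ambiguous. How uniquely reads of the finger tiles map was not tested.

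The 200 bases before the annotated start are shown for 4 genes as examples of start tiles with H3K27me3 (Zfp503 and Zfp536), with H3K9me3 (Zfp445) and with neither (Zfp281). In NCBIM37 they lie at chr14:22808824-22809023 on the minus strand, chr7:38554772-38554971 on the minus strand, chr9:122771247-122771446 on the minus strand and chr1:138521278-138521477 on the plus strand, outside the bounds of the gene they precede. Capitals mark CpG, the pair of bases that DNMT1 methylates.
Zfp503: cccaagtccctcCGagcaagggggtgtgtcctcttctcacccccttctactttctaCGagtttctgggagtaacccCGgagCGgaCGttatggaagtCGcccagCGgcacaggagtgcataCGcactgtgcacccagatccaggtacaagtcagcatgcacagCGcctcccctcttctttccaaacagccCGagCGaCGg
Zfp536: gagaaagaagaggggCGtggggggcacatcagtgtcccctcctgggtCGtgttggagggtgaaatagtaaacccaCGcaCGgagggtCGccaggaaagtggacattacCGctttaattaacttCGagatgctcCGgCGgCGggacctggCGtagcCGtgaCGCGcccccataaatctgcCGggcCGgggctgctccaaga
Zfp445: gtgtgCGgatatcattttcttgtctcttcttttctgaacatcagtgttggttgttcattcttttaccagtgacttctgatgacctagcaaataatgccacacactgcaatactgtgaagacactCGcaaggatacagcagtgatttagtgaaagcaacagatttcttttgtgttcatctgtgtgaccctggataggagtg
Zfp281: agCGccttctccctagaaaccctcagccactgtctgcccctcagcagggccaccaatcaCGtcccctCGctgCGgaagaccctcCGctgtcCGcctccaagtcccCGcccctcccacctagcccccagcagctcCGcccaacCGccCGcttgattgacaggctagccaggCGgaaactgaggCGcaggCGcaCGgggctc

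These windows held 12, 16, 2 and 14 CpG in this order, beside a median of 8 over the 336 Zfp genes and a range of 0 to 44. Of the windows shown, the CpG-rich ones thus included both those of the H3K27me3-marked starts and that of Zfp281, which had 4 and 3 reads of H3K27me3. Zfp648, whose window is not shown, had 5 CpG there and 114 and 68 reads of H3K27me3 in its start tile. This 1 strongly marked start thus had a window with fewer CpG than the median. The 16 start tiles marked by H3K27me3 in both genotypes held a median of 64.5 CpG, beside 55 in the start tiles of 335 Zfp genes. Zfp445, with the CpG-poor window among those shown, had 47 and 40 reads of H3K9me3 in its start tile.

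H3K9me3, the mark deposited by SETDB1 and its relatives, was found at the end of Zfp genes more often than at the end of genes in general. Among the 335 Zfp genes of at least 2 tiles, the last tile was marked in 24 in Dicer KO (7.16%, Wilson interval 4.86 to 10.4%) and in 22 in Dicer KO/Dnmt1 cKO (6.57%, 4.38 to 9.74%). Over all autosomal protein-coding genes of at least 2 tiles, the Zfp genes among them, the shares were 2.06% and 2.14%. The last tile also overlapped another gene in 42 of the Zfp genes. The difference lay in a minority of genes, as the median last-tile level of the Zfp genes was 0.88 and 0.91 beside 0.80 and 0.77 for all genes. The 12 genes marked in both genotypes were Zfp125, Zfp13, Zfp2, Zfp27, Zfp455, Zfp575, Zfp617, Zfp629, Zfp777, Zfp787, Zfp90 and Zfp936. They made up 3.58% of the Zfp genes, beside 1.12% of all genes. The share was 1.83% of the 438 other genes with fingers, 1 of 24 Zscan and Zkscan genes (4.17%) and 0 of 36 Zbtb genes.

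By level, H3K9me3 was as rare at the start of the Zfp genes as at the start of genes in general. The start tile was marked in 6 and 4 genes, or 1.79% and 1.19%, beside 1.25% and 1.24% of all genes. Only Zfp445, Zfp629 and Zfp936 were marked there in both genotypes. The level in the last tile exceeded that in the start tile in 236 of 335 genes in Dicer KO and in 252 in Dicer KO/Dnmt1 cKO, against 59.1% and 60.8% of all genes, and gene bodies had medians of 0.77 and 0.82. All 3 marks had few reads in start tiles. As a ratio to the other 2 marks, H3K9me3 reached 2 at the start of 26 of 185 Zfp genes in Dicer KO. In Dicer KO/Dnmt1 cKO it did so in 12 of 206. These shares of 14.1% and 5.83% stood beside 5.47% and 4.27% of all genes, so on that scale the starts in Dicer KO were not as rare. Divided by the level of the other 2 marks in the same tile, the last tile exceeded the start tile in 88 of 175 and 123 of 199 genes, or 50.3% and 61.8%, beside 60.0% and 58.4% of all genes, so the higher share among Zfp genes was not seen on that scale in Dicer KO.

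Where the fingers are encoded, 22 of 320 genes were marked by H3K9me3 in Dicer KO and 21 in Dicer KO/Dnmt1 cKO, or 6.88% and 6.56%. Over the 756 autosomal genes of any name with finger tiles, the shares were 5.03% and 4.89%, and over the 436 of these that are not Zfp genes they were 3.67% in both genotypes. Counted over tiles, 28 of the 597 finger tiles of Zfp genes (4.69%) were marked in both genotypes, against 55 of their other 4160 tiles (1.32%). The latter share was close to the 1.02% of all tiles of autosomal protein-coding genes. Finger tiles held H3K9me3 more often than the rest of the same genes, then, although neighbouring tiles are not independent.

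**Figure D1:**
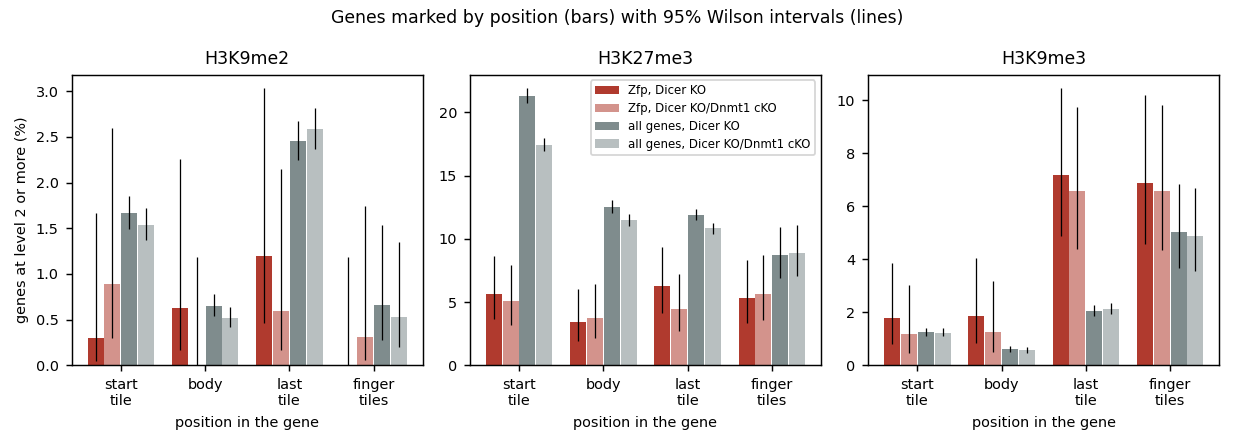
Share of genes at a level of 2 or more (y axis, %) by position in the gene (x axis) for the 3 marks, in Zfp genes (red) and all autosomal protein-coding genes (grey), with Dicer KO in dark and Dicer KO/Dnmt1 cKO in light colours and 95% Wilson intervals as lines. For the finger tiles the grey bars cover the 756 genes with fingers. The H3K9me3 bars of Zfp genes stand above those of all genes in the last tile, and the H3K27me3 bars stand below them in the start tile.

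The highest finger-tile level belonged to Zfp629, a gene of 19 fingers at chr7:134750545-134759311 on the minus strand. The tile chr7:134754001-134756000 held 170 reads of H3K9me3 in Dicer KO and 137 in Dicer KO/Dnmt1 cKO, levels of 12.4 and 9.61. The same tile had 3 and 6 reads of H3K9me2. The start tile of Zfp629 was marked by H3K27me3 too, with 59 and 36 reads (levels of 2.88 and 2.25), so the peaks of the marks lay in different tiles of a gene of 5 tiles.

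Zfp13 at chr17:23712811-23736454 and Zfp777 at chr6:47974187-47998910 had all their fingers in the last tile. That tile held 111 and 59 H3K9me3 reads in Zfp13 and 100 and 67 in Zfp777, whereas their start tiles held 6 and 9 and 8 and 5 reads. In both genes the mark was thus high at the fingers and below the library's mean at the start. Zfp455, the third gene of the highest last tiles, had 59 and 36 reads there, but its finger tiles lay elsewhere and stood at levels of 1.10 and 1.40. At the other end of the range, last-tile levels of H3K9me3 went down to 0.07 and 0. Among genes of at least 3 tiles with at least 50 reads of all marks together in the last tile, which leaves out genes low in every mark, the lowest were Zfp703 (0.29 and 0.56), Zfp61 (0.58 and 0.35) and Zfp114 (0.66 and 0.28), and Zfp703 passed this minimum only through its H3K27me3 reads.

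**Figure D2:**
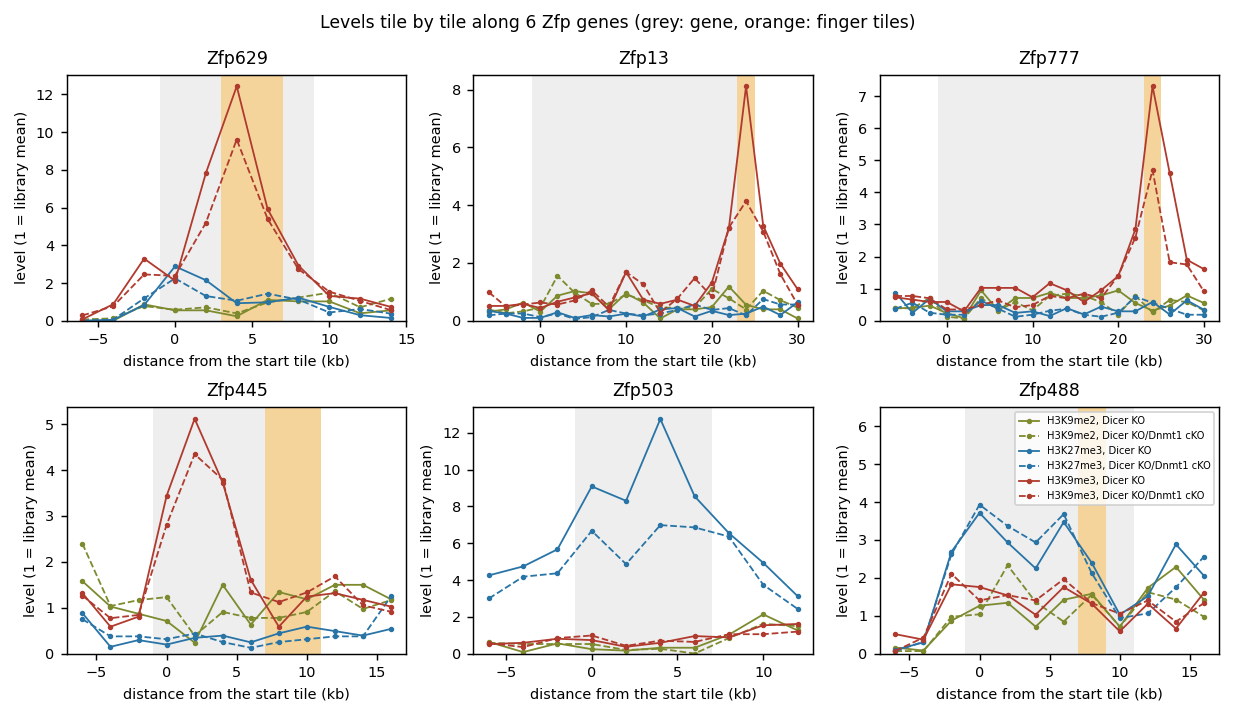
Level of each mark (y axis, 1 is the library's mean) in 2 kb tiles against the distance from the start tile along transcription (x axis, kb) for 6 Zfp genes, with Dicer KO as solid and Dicer KO/Dnmt1 cKO as dashed lines, the gene shaded grey and its finger tiles orange. H3K9me3 peaks at the finger tiles of Zfp629, Zfp13 and Zfp777 and before those of Zfp445, and H3K27me3 covers Zfp503 and all but the last tile of Zfp488.

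The tile with most H3K9me3 was not always a finger tile. In the 319 genes of at least 3 tiles, marked or not, the top tile was a finger tile in 113, the last tile in 71 and the start tile in 16. Body tiles without fingers accounted for 151. A finger tile can also be the last tile, so these counts overlap. Of the 319 genes 42 had a top tile marked in both genotypes, a count not made over all genes. This tile was a finger tile in 16, the last tile in 8 and the start tile in 0. The other body tiles, those without fingers, accounted for 23. Examples of these were Zfp600, with 116 and 90 reads in its top tile, and Zfp462, with 79 and 41. In Zfp445, which with Zfp57 is needed to keep imprints, the top tile was also a body tile without fingers and held 70 and 62 reads.

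The number of fingers and the finger-tile level of H3K9me3 had a Spearman's rho of 0.19 and 0.26 across the 319 Zfp genes with fingers and at least 2 tiles, genes not being independent and sharing each library. For genes with 1 to 5 fingers 2 and 1 of 61 were marked at the finger tiles, for 11 to 15 fingers 11 and 10 of 102, and for 16 or more 5 and 4 of 52. The group with 6 to 10 fingers lay between, at 4 and 6 of 104.

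H3K27me3, the mark of Polycomb repression that covers the CpG-rich starts of developmental genes in ESCs, was rarer on Zfp genes than on genes in general. The start tile was marked in 19 Zfp genes in Dicer KO (5.67%, 3.66 to 8.69%) and in 17 in Dicer KO/Dnmt1 cKO (5.07%, 3.19 to 7.98%), beside 21.3% and 17.4% of all genes. The last tile was marked in 21 and 15, or 6.27% and 4.48%, beside 11.9% and 10.8%. At the finger tiles 17 and 18 of 320 genes were marked, beside 8.73% and 8.86% of all genes with fingers. Over whole genes the median level was 0.38 and 0.46 in Zfp genes and 0.69 and 0.73 in all genes. A rarely marked start was not particular to Zfp genes. In both genotypes at once it was marked in 4.78% of Zfp genes and 15.7% of all genes. The share was 4.17% in 24 Zscan and Zkscan genes, 2.78% in 36 Zbtb genes and 2.39% in 585 olfactory receptor (Olfr) genes. Over the 438 genes with fingers that are not Zfp genes it was 13.9%. The start tiles of Zfp genes held a median of 55 CpG with an upper quartile of 77.5, against 57 and 92 in all genes, and their median GC content was 48.6% against 50.7%. The part of base composition in the difference was not tested.

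The 16 Zfp genes with a start tile marked by H3K27me3 in both genotypes included 4 of the 7 developmental regulators listed, Zfp488, Zfp503, Zfp521 and Zfp536. Zfp503, which acts in the developing striatum and limb, had 186 and 107 reads in its start tile and 175 and 110 in its last tile, so that the whole gene was covered, with a level of 9.68 and 6.35. Zfp536, a repressor of neuronal differentiation, had 128 and 72 reads in its start tile and a last-tile level of 0.98 and 0.87. Zfp521, known from blood and neural progenitors, stood at 4.64 and 2.74 at its start, and Zfp488, which acts in oligodendrocytes, at 3.71 and 3.93. Zfp703 was marked at its start in Dicer KO alone (2.05 and 0.87) and had its mark in the last tile (5.77 and 4.37). Zfp423 stood at 0.59 and 0.44 in its start tile and 2.15 and 1.87 in its last tile, and Zfp238 at 1.03 and 1.12 and at 0.34 and 0.87.

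The KRAB type genes and the factors of pluripotent cells had no tile marked by H3K27me3 at the start or end in both genotypes, where few Zfp genes of any kind did. None of the 6 KRAB type genes Zfp57, Zfp445, Zfp809, Zfp819, Zfp568 and Zfp932, and none of the 5 factors Zfp281, Zfp143, Zfp217, Zfp296 and Zfp462, was marked there, beside 4.78% of all Zfp genes for the start tile and 3.28% for the last tile, so the lists did not stand apart by this count. Zfp819 had the highest start tile among them, at 1.03 and 0.62. The median start-tile levels were 0.17 and 0.37 in the former and 0.20 and 0.25 in the latter, against 3.71 and 2.74 for the developmental regulators. Of the 18 genes on these lists, Zfp445 alone had an H3K9me3-marked start tile in both genotypes. Zfp809, which binds the primer binding site of retroviral elements, had last-tile H3K9me3 levels of 1.17 and 1.75, and Zfp57 had 0.88 and 0.77. The highest last tiles of H3K27me3 were those of Zfp503, Zfp703 and Zfp652 (67 and 45 reads), and the lowest those of Zfp420 and Zfp605 (2 reads in each library) and Zfp110 (5 and 0).

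H3K9me2, a broad mark laid down by EHMT1 and EHMT2, showed few high tiles on Zfp genes. The start tile was marked in 1 and 3 genes (beside 1.66% and 1.54% of all genes) and the last tile in 4 and 2 (beside 2.45% and 2.58%), with 1 gene, Zfp707, marked at its start in both genotypes and none at its end. Levels were lower at the start, with medians of 0.32 and 0.39, than in the last tile, with 0.71 and 0.78. The last tile exceeded the start tile in 245 and 237 of 335 genes, and the same held for 66.4% and 67.3% of all genes. For H3K27me3 the numbers were 211 and 206, against 46.5% and 47.7% of all genes. Divided by the other 2 marks, H3K27me3 was higher in the last tile in 95 of 215 and 102 of 233 Zfp genes. These shares of 44.2% and 43.8% stood beside 37.6% and 38.9% of all genes. On that scale H3K9me2 was higher in the last tile in 63.1% and 55.1%, below the 69.3% and 67.2% of all genes. The highest last tiles of H3K9me2 were those of Zfp260 (29 and 26 reads), Zfp940 (32 and 22) and Zfp618 (24 and 31). The lowest, among genes with at least 50 reads of all marks together in that tile, were those of Zfp503 (4 and 0), Zfp703 (1 and 4) and Zfp706 (2 and 5). Zfp503 and Zfp703 passed this minimum only through their H3K27me3 reads, so nothing can be read from their place in this order.

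Across the Zfp genes, a start tile with more CpG had less H3K9me2 (Spearman's rho of -0.52 and -0.55 over 335 genes) and less H3K9me3 (-0.36 and -0.39). For H3K27me3 the values were -0.11 and -0.12. These describe genes within single libraries, whose read numbers also depend on base composition.

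The change with the loss of Dnmt1 was taken over the whole gene as the log2 ratio of the shares of the libraries' reads, Dicer KO/Dnmt1 cKO over Dicer KO, for genes with at least 50 reads of the mark in both libraries together. A gene past 1.5-fold is counted as higher or lower. Summed over all 336 Zfp genes, H3K9me3 differed by 0.02 (0.00 to 0.04), H3K27me3 by 0.10 (0.08 to 0.12) and H3K9me2 by 0.11 (0.09 to 0.12). The median over all genes was itself shifted, by 0.03, 0.07 and 0.11, and scaled to these medians the sums were -0.01 for H3K9me3, 0.03 for H3K27me3 and -0.01 for H3K9me2. Summed over all autosomal protein-coding genes instead, the differences were 0.03 for H3K9me3, 0.02 for H3K27me3 and 0.04 for H3K9me2. The medians over Zfp genes were 0.01, 0.20 and 0.14 in this order. H3K27me3 thus rose more in the Zfp genes than in genes in general by sum and by median, but by less than 1.5-fold. Such a rise was not particular to Zfp genes. Its sum and median were 0.11 and 0.15 in Zscan and Zkscan genes and 0.07 and 0.28 in Zbtb genes. In the other genes with fingers they were 0.04 and 0.12. For H3K9me2 the sums differed more than the medians, and H3K9me3 did not rise beyond genes in general.

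For H3K9me3 3 of 315 Zfp genes were higher and 5 lower, beside 1.67% and 1.35% of all genes. With at least 200 reads the largest differences were those of Zfp810 (86 and 124 reads, 0.47, 0.07 to 0.86) and Zfp619 (101 and 144 reads, 0.45, 0.08 to 0.82) upward, and of Zfp668 (201 and 137 reads, -0.61, -0.93 to -0.30) and Zfp442 (170 and 126 reads, -0.49, -0.82 to -0.16) downward. Of these Zfp668 was past 1.5-fold. In the last tile alone, H3K9me3 summed over 335 Zfp genes differed by -0.04 (-0.10 to 0.01). At least 50 reads of it were held there by 35 of these genes, and the other 300 had fewer. Among the 35 genes 9 were lower past 1.5-fold (25.7%) and 1 higher (2.86%), beside 12% of all genes lower and 6.98% higher. The interval lay below 0 in 5 of the 9. Among them were Zfp13 (-0.97, -1.43 to -0.52), Zfp777 (-0.64, -1.08 to -0.19), Zfp455 (-0.77, -1.37 to -0.18) and Zfp787 (-0.80, -1.42 to -0.17). The last tiles of Zfp13 and Zfp777 were still marked in Dicer KO/Dnmt1 cKO, at levels of 4.14 and 4.70. Over the whole gene, Zfp445 and Zfp629 differed by -0.09 (-0.37 to 0.18) and -0.30 (-0.50 to -0.10).

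For H3K27me3 29 of 285 Zfp genes were higher and 5 lower, or 10.2% and 1.75%, beside 5.89% and 2.36% of all genes. Higher genes made up 15.8% of 19 Zscan and Zkscan genes, 18.8% of 32 Zbtb genes and 8.99% of 367 other genes with fingers. The Zfp genes that were higher had low levels, none above that of Zfp619 with 0.50 and 0.82. Of the genes with at least 200 reads 4 were higher, among them Zfp619 (123 and 158 reads, 0.71, 0.37 to 1.05) and Zfp710 (142 and 182 reads, 0.71, 0.39 to 1.03), the latter at 0.20 and 0.32. The 5 lower genes were Zfp467, Zfp503, Zfp580, Zfp703 and Zfp811. Among genes with at least 200 reads the largest falls were those of covered genes, Zfp703 (292 and 138 reads, -0.73, -1.02 to -0.44) and Zfp503 (792 and 407 reads, -0.61, -0.78 to -0.44). Of 29 start tiles with at least 50 reads 6 were lower (20.7%) and 1 higher (3.45%). Of all genes tested 24% were lower and 2.80% higher there, so the start tiles of Zfp genes did not stand apart. Zfp536 and Zfp521, which are long, differed by 0.02 (-0.03 to 0.06) and 0.05 (-0.02 to 0.11) over the gene.

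For H3K9me2 18 of 302 Zfp genes were higher and 1 lower, beside 4.75% and 0.795% of all genes. Scaled to the all-gene median, which stood at 0.11, 9 were higher and 6 lower. The largest upward differences with at least 200 reads were those of Zfp715 (70 and 132 reads, 0.63, 0.21 to 1.05) and Zfp583 (76 and 137 reads, 0.57, 0.16 to 0.97). The largest downward differences were those of Zfp616 (162 and 152 reads, -0.38, -0.70 to -0.06) and Zfp600 (121 and 123 reads, -0.26, -0.62 to 0.10). In Zfp619 the finger tiles were higher for all 3 marks, with 10 and 37 reads of H3K9me2, 29 and 58 of H3K27me3 and 19 and 39 of H3K9me3. This gene encodes 33 fingers.

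**Figure D3:**
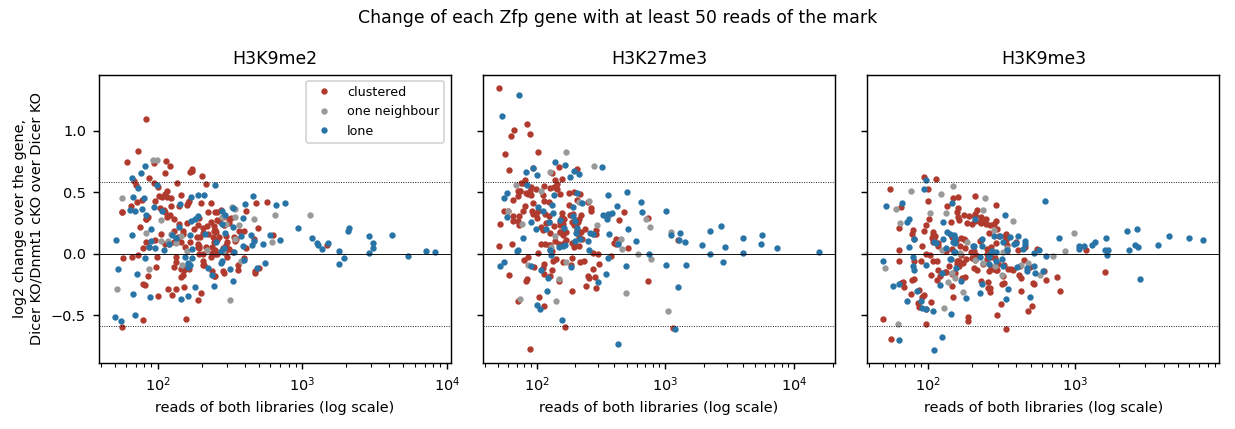
Log2 change over the gene, Dicer KO/Dnmt1 cKO over Dicer KO (y axis), against the reads of both libraries (x axis, log scale), 1 point for each Zfp gene with at least 50 reads, coloured by class, with dotted lines at 1.5-fold. Most points past the lines have fewer than 200 reads, and those with more include Zfp619 and Zfp710, higher for H3K27me3, and Zfp467, Zfp503 and Zfp703, lower for it.

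By position along the chromosome, 187 Zfp genes were clustered, with at least 2 other Zfp genes within 500 kb, 113 were lone, with none, and 36 had 1 such neighbour. The last tile was marked by H3K9me3 in 8.06% and 9.14% of clustered genes (intervals of 4.95 to 12.9% and 5.78 to 14.1%) and in 6.19% and 4.42% of lone genes (3.03 to 12.2% and 1.90 to 9.94%). These intervals overlapped in both genotypes, and with neighbours counted over every gene of at least 3 fingers the order in Dicer KO reversed, to 7.35% of clustered and 8.14% of lone genes. In both genotypes at once it was marked in 10 of 186 clustered (5.38%) and 2 of 113 lone genes (1.77%), beside 1.12% of all genes. Of the 36 genes with 1 neighbour 0 were. Among clustered genes of at least 6 tiles the mark was not confined to the gene, since the next tile after the last was marked in 8.46% and 7.69%, beside 8.46% and 10.0% for the last tile itself.

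H3K27me3 went the other way. The start tile was marked in 2.69% and 2.15% of clustered genes (1.15 to 6.14% and 0.84 to 5.40%) and in 10.6% and 9.73% of lone genes (6.18 to 17.6% and 5.52 to 16.6%). These intervals did not overlap, but with neighbours counted within 250 kb they did, at 0.67 to 5.64% for clustered genes in both genotypes and 5.36 to 15.4% and 4.79 to 14.5% for lone genes. Genes of a cluster also share a region and are not independent. The start tiles of clustered genes also held fewer CpG, with a median of 45.5 against 65, and the part of this in the difference was not tested. All of the developmental regulators with an H3K27me3-marked start tile in both genotypes, Zfp488, Zfp503, Zfp521 and Zfp536, were lone genes. Over whole genes H3K9me3 differed between genotypes by -0.04 (-0.07 to -0.01) in the clustered and by 0.05 (0.03 to 0.08) in the lone genes, less than 1.5-fold in either.

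**Figure D4:**
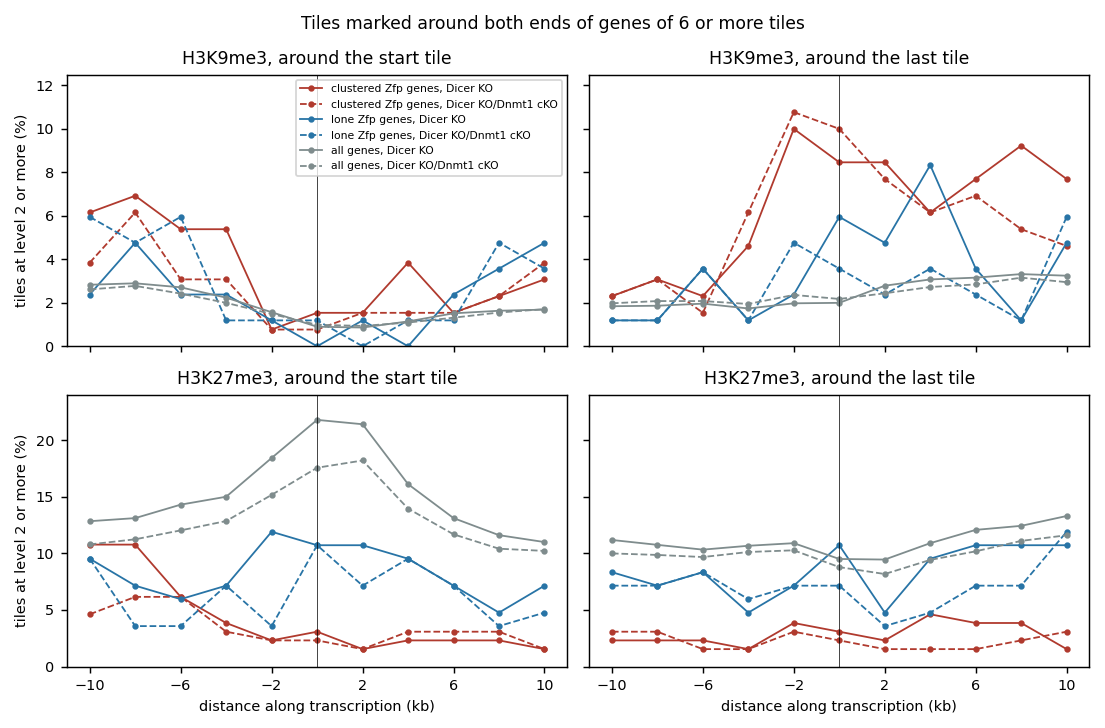
Share of tiles at a level of 2 or more (y axis, %) by distance from the start tile or last tile along transcription (x axis, kb) for H3K9me3 and H3K27me3, in clustered (red) and lone (blue) Zfp genes and all autosomal protein-coding genes (grey) of at least 6 tiles, with Dicer KO solid and Dicer KO/Dnmt1 cKO dashed. H3K9me3 in clustered genes is highest in the tile before the last (10.0 and 10.8%) and stays above all genes past the gene end, and H3K27me3 at the start is highest in all genes and lowest in clustered genes.

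The largest runs of Zfp genes, joined where gaps were at most 500 kb, held 20 genes each. The run at chr13:66771705-67927937, with Zfp455, Zfp457 and others, had median last-tile H3K9me3 levels of 1.17 and 1.16, and the mean level of its 579 tiles was 0.80 and 0.76. In the run at chr17:21145905-23736454, with Zfp13 at its end, the median last-tile levels were 1.10 and 1.09 and the mean over the region 0.95 and 0.88. In both runs the regions as a whole lay below the library's mean while the median gene end lay above it. In the run of 14 genes at chr7:30553571-30954746, with Zfp568 and Zfp420, the last tiles had medians of 0.84 and 0.98 and the region a mean of 1.01 and 1.02. H3K27me3 was low over the runs on chromosome 13 (0.42 and 0.46) and at chr7:30553571-30954746 (0.37 and 0.47).

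The genes of the silencing pathway themselves, 16 symbols with Trim28, Setdb1, Ehmt1, Ehmt2, Dnmt3a, Dnmt3b and subunits of Polycomb among them, were not marked by H3K27me3 at the start or end in both genotypes, beside 15.7% of the starts and 8.53% of the ends of all genes. H3K9me3 marked 1 start tile in both, beside 0.610%. Over the gene, 4 of the 15 entries tested were higher for H3K27me3 (5.89% of all genes) and 1 of 16 for H3K9me2 (4.75%). None was lower for these marks (2.36% and 0.795% of all genes), and none of 16 passed 1.5-fold for H3K9me3 in either direction (1.67% higher and 1.35% lower).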

How the data were processed

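According to the labels and the study's methods, ChIP-seq reads were aligned to NCBIM37 with Bowtie, alignments of poor mapping quality were dropped by the authors, and SeqMonk counted reads per tile. The values deposited are the log2 of an observed to expected ratio for tiles of 2 kb, while a different tile size is named in the methods. Removal of duplicate reads is not described for ChIP-seq in the sources used here. The labels give the strain as E14 and the methods another. The samples matched 6 of 25 value columns, which left 19 unused. After taking antilogs, read numbers were recovered as multiples of 1 step per library, with empty tiles at 0.9 of a step and at least 99.9999% of the other values within 0.1 of a whole number.

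The bounds and coding sequences of genes came from GENCODE on NCBIM37. Start and last tiles were compared over genes of at least 2 tiles, so genes in 1 tile enter whole-gene values only. Levels, shares with Wilson intervals and log2 ratios with 95% intervals, which cover counting error only since ChIP reads are not independent molecules, were computed with scipy 1.17.1, pandas 2.3.3 and numpy 2.4.6 under Python 3.11.15 (figures, matplotlib 3.10.9). The functions were tested on simulated data. At medians of 13 to 18 reads a tile, single tiles are imprecise. With 1 library per group no test was made.

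Members and lists were chosen with earlier results of these data known. Named genes were the listed KRAB type, pluripotent cell and developmental genes, for each mark the 3 highest and 3 lowest last tiles, and the 2 largest rises and falls among genes with at least 200 reads. Other genes were named after their values were seen. Tfcp2l1, a further ESC gene sought, was not matched by symbol, and Atf7ip was annotated under 2 identifiers. Alternatives are given in the closing section.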

Additional observations from a re-analysis of the deposited data

How the results depend on the processing

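With 1 library for each mark and genotype no library could be left out. No paired analysis was possible because the groups share no replicate. Of 222 recomputed values that answer a comparison, 151 kept their value within 1.5 times or within the counting interval. Values below are given for Dicer KO and then Dicer KO/Dnmt1 cKO, and the causes were not tested unless the construction of an alternative shows them. Lower or higher thresholds change counts by construction. At a level of at least 1.5 the marked start tiles were 15 and 19 for H3K9me2, 29 in Dicer KO for H3K27me3, and 19 and 13 for H3K9me3, and the marked last tiles 17 and 25, 34 and 28, and 54 and 61. At a level of at least 3 they were 0 and 0, 8 and 5, and 2 and 1 for start tiles, and 0 and 0, 5 and 5, and 6 and 2 for last tiles. Divided by the other 2 marks, start tiles of H3K9me2 numbered 11 and 22 and of H3K9me3 26 and 12, last tiles 32 and 23 and 69 and 65, and finger tiles 16 and 20 and 96 and 78. By this ratio 23.8% and 21.5% of Zfp genes had an H3K9me3-marked last tile, beside 8.54% and 6.36% of all genes. For H3K9me3 start tiles the shares were 14.1% and 5.83% beside 5.47% and 4.27%. For H3K9me3 finger tiles they were 31.9% and 25.2%, beside 24.6% and 18.8% of all genes with fingers. For H3K9me2 they were 4.33% and 8.80% beside 2.69% and 2.97% at the start. At the end they were 10.1% and 7.28% beside 7.74% and 7.98%, and at the fingers 5.11% and 6.33% beside 4.93% and 5.37%. The last tile then exceeded the start tile in 157 and 135 Zfp genes with H3K9me2, in 95 and 102 with H3K27me3, and in 88 and 123 with H3K9me3, over the fewer genes with at least 10 reads of the other marks. With the first 2 and last 2 tiles, H3K9me2 marked 0 starts in Dicer KO/Dnmt1 cKO and 1 and 0 ends. With the mean over autosomal tiles that hold reads, H3K9me2 marked 0 and 1 starts and 0 ends in Dicer KO/Dnmt1 cKO, and H3K9me3 marked 13 ends there. Shares over all genes were not computed at levels of 1.5 and 3 or with this mean. Whether the higher share of H3K9me3 at the ends of Zfp genes holds under these settings was therefore not tested. Without tiles that overlap another gene, H3K9me2 marked 1 end in Dicer KO/Dnmt1 cKO, and 2 genes were lower for H3K9me2 and 3 for H3K9me3. Scaled to a median log2 ratio of 0, the sum over Zfp genes reversed to -0.00662 for H3K9me2 and -0.0129 for H3K9me3 and was 0.0320 for H3K27me3. By trimmed means it reversed to -0.00216 and -0.0143 and was 0.0360. Under either scaling 9 genes were higher and 6 lower for H3K9me2, and 1 was higher for H3K9me3. With at least 200 reads 1 gene was higher and 0 lower for H3K9me2. For H3K27me3 the counts were 4 and 3 and for H3K9me3 they were 0 and 1. With no minimum and 1 read added, 6 were higher and 9 lower for H3K9me3. The windows of 250 kb and 1 Mb, and neighbours counted over every gene with at least 3 fingers, left the shares of clustered and lone genes within their intervals, although the last of these reversed the order for H3K9me3 in Dicer KO (7.35% and 8.14%). Depth limits single tiles, and low last-tile counts such as those of Zfp420 or Zfp110 show no absence of a mark.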

Other observations

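Genes with fingers but other names also held H3K9me3 where their fingers are encoded, and 4 examples, chosen after the values were seen, are given as values. In Gm13247, the highest of these, with 7 fingers, the finger tile held 73 reads in Dicer KO and 64 in Dicer KO/Dnmt1 cKO. In Zscan20 it held 61 and 51 reads. Lower in this order, the neighbouring genes Zim1 and Peg3, picked because they are known as imprinted genes, had 74 and 79 and 61 and 72 reads in their finger tiles, levels of 2.71 and 2.77 and of 2.23 and 2.52.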
